A study of Mus musculus with 4 samples.

Results

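The Bex and Tceal genes are 2 related families of short genes that lie together on the X chromosome. The account covers the 10 members named Bex1, Bex2, Bex4, Ngfrap1, Tceal1, Tceal3, Tceal5, Tceal6, Tceal7 and Tceal8, all of which are in the deposited table of 22691 genes. They were chosen by name, with earlier results of these libraries in view. The paternal shares and read numbers below, and the calls made from them, are therefore given as a description. RNA-seq had been done on fibroblasts from female mouse fetuses of day E13.5, in 2 libraries of the genotype Smchd1 MD1/MD1 (MD1) and 2 libraries of the genotype Smchd1 +/+ (WT). All 4 were also Xist deltaA/+, with C57BL6/J mothers and fathers from a JF1 by C57BL6/J cross. The deltaA mutation of Xist, the RNA that starts silencing, keeps its own X active. The JF1 X from the father was therefore the inactive X, and JF1 reads measure RNA made from it. The labels do not say whether replicates came from separate fetuses, so the spread between 2 libraries may be technical.

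SmcHD1 is a chromatin protein of the inactive X, and it is needed to keep many genes there silent. Bex genes encode small, largely unstructured adaptor proteins that are best known from neurons, where some take part in signalling by a neurotrophin receptor. Tceal genes are named for the resemblance of their products to transcription elongation factor S-II. Both families arose by repeated duplication in placental mammals, and a sequence shared around their start sites has been described there.

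The members span 1.501 Mb of X (131743225 to 133244405, mm9), and 7 of them sit within 0.205 Mb, from Bex2 to Ngfrap1 (132601104 to 132806517). Between the outermost members the table lists 18 other genes. Of the 10 members 5 are on the plus strand and 5 on the minus strand, and their gene spans are 1393 to 3268 bases long.

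Some pairs of members were much alike in the sequence before the start sites. How this likeness arose was not tested. Promoter windows of 300 bases, 250 before the start and 50 from it on, were matched in RefSeq for all 10 members (build GRCm38.p6, whose coordinates differ from those of mm9). Identity was taken over the aligned bases and inner gaps, so overhanging ends were left out. No unrelated windows were aligned for comparison. Over 45 pairs of members the median identity was 50.2%. Bex1 and Bex4 were 97.7% identical, over 294 aligned bases, and Bex2 and Ngfrap1 86.7%, over 257. The third pair in that order, Tceal3 and Tceal6, had 59.1%. The aligned upstream stretches of the 2 closest pairs are shown because they are the most alike among the members. Capitals mark the bases at which the 2 partners differ.
Bex1 (chrX:136215514-136215753, - strand): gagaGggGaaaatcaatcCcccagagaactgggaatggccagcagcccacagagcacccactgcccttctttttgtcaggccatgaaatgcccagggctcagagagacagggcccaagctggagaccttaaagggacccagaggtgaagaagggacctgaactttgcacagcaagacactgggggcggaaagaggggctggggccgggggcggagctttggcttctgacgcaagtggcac
Bex4 (chrX:136138750-136138989, + strand): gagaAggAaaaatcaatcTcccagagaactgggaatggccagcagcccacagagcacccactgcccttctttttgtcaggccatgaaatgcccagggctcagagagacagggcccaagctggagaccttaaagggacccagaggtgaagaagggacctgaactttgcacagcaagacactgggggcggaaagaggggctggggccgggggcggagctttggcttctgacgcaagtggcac
Bex2 (chrX:136068237-136068385, - strand): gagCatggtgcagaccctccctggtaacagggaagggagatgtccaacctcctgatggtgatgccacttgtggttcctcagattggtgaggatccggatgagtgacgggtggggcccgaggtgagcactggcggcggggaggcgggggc
Ngfrap1 (chrX:136270067-136270215, + strand): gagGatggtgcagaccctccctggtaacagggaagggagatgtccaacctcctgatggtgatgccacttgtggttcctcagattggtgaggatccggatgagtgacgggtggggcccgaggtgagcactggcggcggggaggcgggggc
The stretches of Bex1 and Bex4 had 237 of 240 bases in common, and those of Bex2 and Ngfrap1 148 of 149. Likeness went on into the transcripts. In GENCODE transcripts the longest stretch shared base for base was 252 bases for Bex1 and Bex4, 244 for Tceal5 and Tceal6, 230 for Tceal3 and Tceal6 and 222 for Tceal3 and Tceal5. It was 160 bases for Bex2 and Ngfrap1 and 108 for Bex1 and Bex2, and at most 23 for the other 39 pairs. How the authors treated reads that match several places is not given in the sources used here, so values of Bex1, Bex2, Bex4, Ngfrap1, Tceal3, Tceal5 and Tceal6 are uncertain to the extent that such reads were split among copies.

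An E-box, the word CACGTG that basic helix-loop-helix proteins bind, was found in the promoter windows of 9 of the 10 members. It was in 7.15% of all 32851 promoter windows of the RefSeq table. The longer word TCACGTGA, which contains the E-box, was in 7 members and in 0.974% of all windows. Each of these words reads the same on both strands. The windows around the E-box are shown for the 9 members that hold it, as 30 bases in the direction of transcription with the E-box in capitals.
Bex1 (chrX:136215499-136215528, - strand): tgacgcaagtggCACGTGactagcccacgc
Bex4 (chrX:136138975-136139004, + strand): tgacgcaagtggCACGTGactagcccacgc
Ngfrap1 (chrX:136270268-136270297, + strand): acgcagggccctCACGTGacccggggctgc
Tceal1 (chrX:136707969-136707998, + strand): acgcgctcccctCACGTGaccaggagccta
Tceal3 (chrX:136666366-136666395, + strand): tgacgcggtgttCACGTGaccggccaggcg
Tceal5 (chrX:136203882-136203911, - strand): tgacgttcctgtCACGTGatcaggagcaga
Tceal6 (chrX:135210684-135210713, - strand): tgacgctttgctCACGTGactggcttggtg
Tceal7 (chrX:136223969-136223998, + strand): tgacataatcctCACGTGattagaagctga
Tceal8 (chrX:136172217-136172246, - strand): tgacgcgatcctCACGTGaccagcagtcga
The word TGACG, searched on both strands and known as part of the cAMP response element, was in all 10 members and in 20.8% of all windows. In 6 members (Bex1, Bex4, Tceal3, Tceal5, Tceal6 and Tceal8) TGACG began exactly 12 bases before the E-box, and in Ngfrap1 and Tceal1 it began 14 bases before it. One or the other spacing of TGACG and CACGTG, with 7 or 9 free bases between them and on either strand, was found in 23 genes of 27025 with a promoter window, or 0.0851%. Of those 23 genes 12 were X-linked, and they comprised 8 members, the related genes Armcx1, Armcx4 and Armcx6, and B230119M05Rik. Bex2 had no E-box in its window and Tceal7 had its TGACG behind the E-box. Among related genes on X with a window, 3 of 9 had an E-box, and Wbp5 (Tceal9) had none. The words and spacings were picked after the members' sequences had been read, and a match is not evidence that a factor binds.

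**Figure D1:**
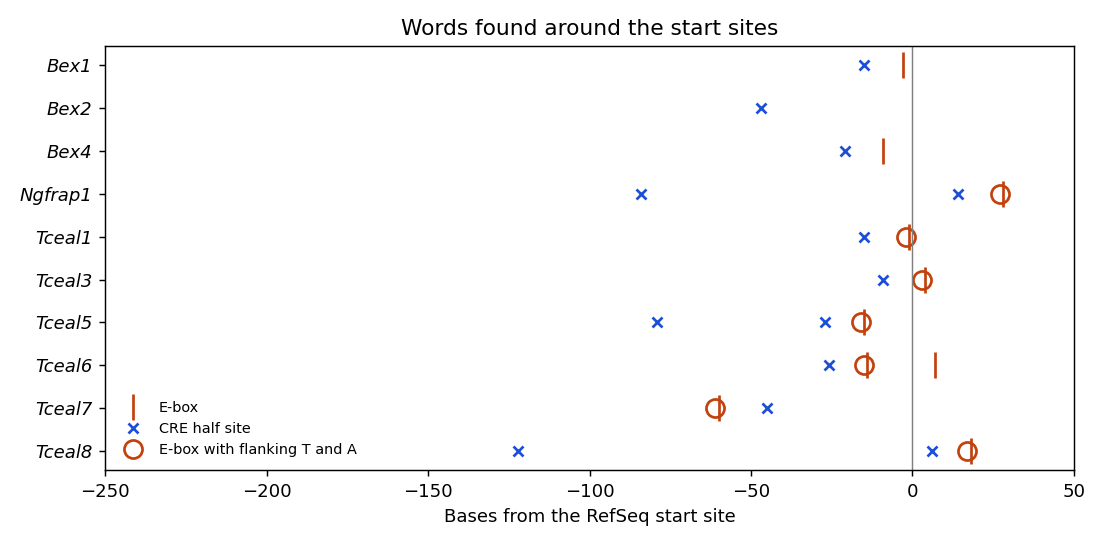
Position of each word, in bases from the RefSeq start site, for the 10 members (rows). Bars mark E-boxes, circles the longer word with flanking T and A, and crosses the word TGACG on either strand. In 8 members a cross stands 12 or 14 bases left of a bar.

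Paternal RNA of the Bex and Tceal genes was close to 0 in WT and low in MD1. The paternal share is the JF1 percentage of allele-specific reads, which the authors gave for each library with at least 10 of them. A share in all 4 libraries was given for 5 of the 10 members. Averaged over these 5 (Bex1, Ngfrap1, Tceal1, Tceal3 and Tceal8) the share was 6.09% ± 3.73 in MD1 and 0.239% ± 0.156 in WT (SD, n = 2 libraries each), a difference of 5.86 points. The libraries had 8.73% and 3.46% in MD1 against 0.349% and 0.129% in WT, so the groups did not overlap. In these means, which count each gene alike, the 2 MD1 libraries were far apart, mainly through Bex1 and Tceal1. Those had only 75 and 65 reads in MD1 replicate 1. With reads pooled over the 5 members, the libraries had 4.85% and 4.57% in MD1 against 0.368% and 0.219% in WT. Without MD1 replicate 1 the difference was 3.22 points. Over 391 X-linked genes that had a share in all libraries and averaged at least 20 reads, the mean share was 17.9% ± 0.352 in MD1 and 0.691% ± 0.0449 in WT (SD, n = 2 each). The median gene had 5.97% among the 5 members and 13.03% among the 391 genes in MD1, and 1 of the 5 members against 54.5% of the 391 genes reached a share of 10% there.

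By edgeR's quasi-likelihood test on JF1 and B6 reads at an FDR of 0.05 over the 391 genes, the paternal share rose in 4 of the 5 members, and it rose in 74.4% and fell in 0.256% of all 391 genes. In the same 4 members the lower MD1 library exceeded the higher WT library, as in 77.5% of the 391 genes.

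Ngfrap1 (X, 132804792 to 132806517, mm9), also called Bex3, encodes an adaptor that links the neurotrophin receptor encoded by Ngfr to cell death. Its share was 9.32% and 7.20% in MD1 libraries, from 40 of 429 and 47 of 653 reads, and 0% and 0.205% in WT libraries, from 0 of 284 and 1 of 488 reads. Both MD1 libraries were well above both WT libraries, with 8.26% ± 1.504 in MD1 against 0.102% ± 0.145 in WT (SD, n = 2 each). The 0 of 284 reads allow a share of up to 1.06%. Ngfrap1 rose with any 1 library left out and with DESeq2 as well.

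Bex1 (X, 132748511 to 132750052), whose product interacts with the same receptor in rodents, had an uneven share. It was 20% of 75 reads and 4.72% of 445 reads in MD1, against 1.33% of 75 reads and 0.2% of 500 reads in WT. The 95% Wilson intervals of the MD1 libraries, 12.5% to 30.4% and 3.11% to 7.11%, did not overlap, so the 2 MD1 libraries differed beyond counting error. The paternal reads numbered 15 and 21 in the MD1 libraries, while the maternal B6 reads numbered 60 and 424. The gap in share thus lay beside a gap in maternal reads. Pooled by the authors, the share was 6.92% in MD1 and 0.348% in WT. The call for Bex1 was lost without WT replicate 2 (adjusted p = 0.0796, edgeR), and over all alternatives its adjusted p was at most that value.

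Bex2 (X, 132601104 to 132602775), which in human cells is linked to survival and cell cycle control, had no paternal read. In MD1 there were 0 of 19 and 0 of 105 reads, and in the WT library with a share there were 0 of 139. The other WT library had 9 reads and no share. The authors' pooled share was 0% in both groups, from 124 MD1 reads and 148 WT reads, which allow a share of up to 2.42% in MD1 and 2.03% in WT. Bex4 (X, 132673584 to 132674976) had no allele-specific read in any library, with 2.08 FPKM in MD1 and 2.68 FPKM in WT, so its alleles could not be told apart here.

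Tceal8 (X, 132703523 to 132706790) was the most deeply read member, with 2394 and 3624 allele-specific reads in MD1 against 2423 and 2943 in WT. Its share was 3.55% and 4.22% in MD1 against 0.413% and 0.238% in WT. All 4 values have narrow Wilson intervals, 2.88% to 4.37% and 3.61% to 4.93% in MD1 against 0.224% to 0.758% and 0.115% to 0.490% in WT, which did not overlap between groups. Tceal8 rose under each alternative run.

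Tceal1 (X, 133242604 to 133244405) encodes a nuclear phosphoprotein that in humans modulates transcription. Its share was 10.8% of 65 reads and 1.16% of 86 reads in MD1, against 0% of 93 reads in each WT library. MD1 replicate 1 held 7 of the paternal reads and MD1 replicate 2 held 1. The call (adjusted p = 0.0092, edgeR) was lost without WT replicate 1, without WT replicate 2, without MD1 replicate 1 and with DESeq2, where the adjusted p was 0.0571, 0.06003, 0.421 and 0.12. Over the 2 WT libraries 0 of 186 reads allow up to 1.61%.

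Tceal3 (X, 133200914 to 133202916) had no paternal read in any library, from 65 and 53 reads in MD1 and 115 and 80 reads in WT. Pooled, the 118 MD1 reads allow a share of up to 2.54% and the 195 WT reads up to 1.54%. It was the member of the 5 that was not called. Tceal5 (X, 132735490 to 132738390) had 1 paternal read of 15 in MD1 replicate 2, 6 reads and no share in MD1 replicate 1, and 0 of 13 and 0 of 63 in WT. Its near copy Tceal6 (X, 131743225 to 131745226) had 6 MD1 reads and 2 WT reads in all, and Tceal7 (X, 132758580 to 132760639), a gene of muscle progenitors in mice, had 13 MD1 reads and 6 WT reads. Neither had a share in any library.

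**Figure D2:**
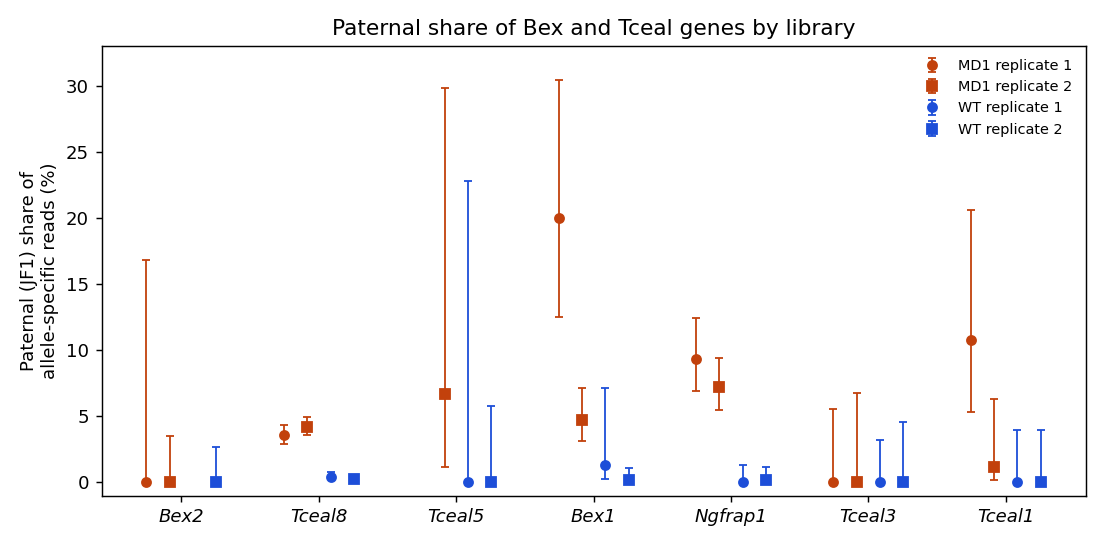
Paternal share in percent of the 7 members with a share in at least 3 libraries, MD1 libraries left of WT libraries, circles for replicate 1 and squares for replicate 2, bars for the 95% Wilson interval (counting error only). Bex1 and Tceal1 are far apart between the 2 MD1 libraries, and Bex2 and Tceal3 are at 0% in every library shown.

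The shares changed sharply over short distances around the members. On the proximal side the nearest genes with enough reads were close to silent in MD1, with 0% at Armcx6, 0.340% ± 0.0802 at Armcx2 and 0.685% ± 0.969 at Zmat1 (SD, n = 2). Armcx5 and Gprasp1, which lie between Tceal6 and Bex2, had 33.5% ± 1.20 and 13.03% ± 0.817 in MD1 against 0% in WT for both (SD, n = 2 each). Both are listed with the same start on the plus strand, and Armcx5 lies within the span of Gprasp1. They are therefore not separate places and may share reads. The next 3 genes with enough reads toward Bex2 were again near 0 in MD1, with 0.127% ± 0.0426 at Bhlhb9, 0.115% ± 0.163 at Arxes2 and 0% at Arxes1 (SD, n = 2). Wbp5, now named Tceal9 and thus a family member in all but the name used in the table, lies between Tceal7 and Ngfrap1. It had 8.40% and 10.1% in MD1, from 7790 and 8485 reads, against 0.0467% and 0.024% in WT.

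Distal to Tceal1 the shares in MD1 were higher than in any member with a share in all libraries. Morf4l2, the neighbour of Tceal1, had 48.9% of 90 reads and 30.9% of 6243 reads in MD1 against 0.0688% and 0.0478% in WT. The 90 reads of MD1 replicate 1 stand against 4183 to 6243 in the other 3 libraries, so its mean rests on 1 deep MD1 library. BC065397 followed with 44.5% ± 1.12 in MD1 against 0% in WT (SD, n = 2 each). BC065397 overlaps Morf4l2 in the table, so its value is uncertain. No test was made between these genes and the members.

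**Figure D3:**
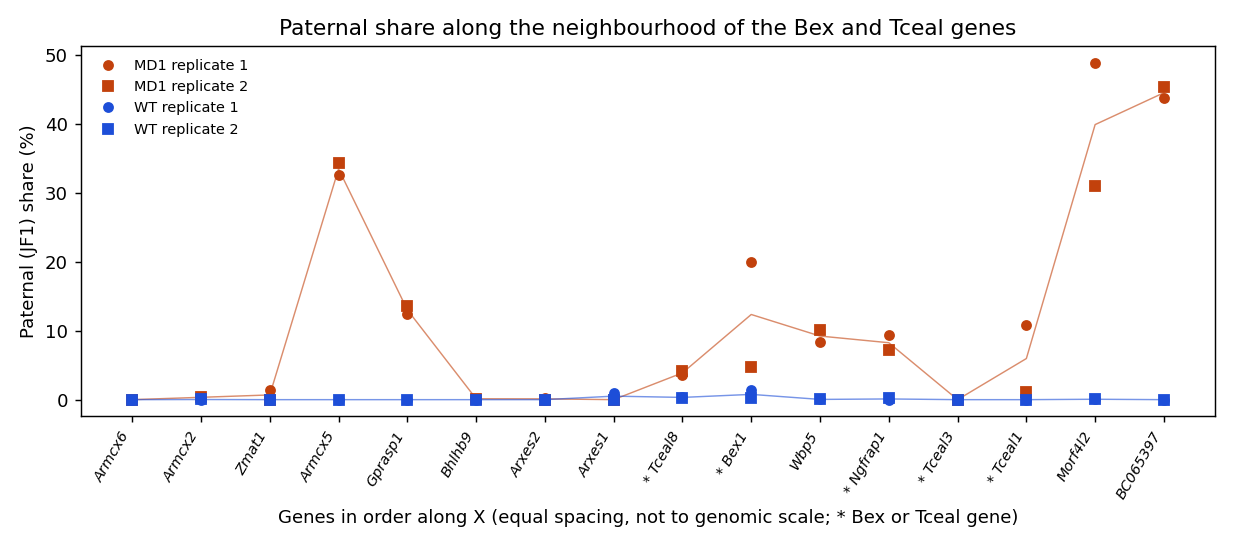
Paternal share in percent for genes with a share in all 4 libraries, in their order along X at equal spacing, members marked by a star, circles for replicate 1 and squares for replicate 2, lines through the group means of MD1 and WT. In the MD1 libraries the members lie at 0% to 20%. Just left of them Bhlhb9, Arxes2 and Arxes1 lie at 0% to 0.230%, and farther left Armcx5 lies at 32.6% and 34.3%. On the right Morf4l2 and BC065397 lie at 30.9% to 48.9%.

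The reads of both alleles gave a measure of the members' RNA in each library, which FPKM did not. They were scaled to reads per 1000000 X-linked allele-specific reads, called scaled reads below, of which the libraries had 704635 and 806626 in MD1 against 544330 and 521768 in WT. This scale is relative to the other X-linked genes, many of which gained paternal reads in MD1, and it compares libraries but not genes, since genes differ in their number of JF1 variants.

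Bex1 and Bex2 differed more between replicates than between genotypes. Bex1 had 106.4 and 551.7 scaled reads in MD1 against 137.8 and 958.3 in WT. Bex2 had 27.0 and 130.2 in MD1 against 16.5 and 266.4 in WT. In both genes replicate 1 was the low library in each genotype, and the groups overlapped. The second replicate over the first was 5.18-fold in MD1 and 6.95-fold in WT for Bex1, and 4.83-fold and 16.1-fold for Bex2. Of 406 X-linked genes averaging at least 20 reads, Bex1 and Bex2 were the only 2 at least 4-fold higher in replicate 2 in both genotypes, a bound chosen after the values were seen. The 108 bases that Bex1 and Bex2 transcripts share do not let reads from there be told apart.

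Tceal5 was also lower in replicate 1 of each genotype, with 8.52 and 18.6 scaled reads in MD1 against 23.9 and 120.7 in WT. Unlike those of Bex1 and Bex2, its groups did not overlap. It reached the mean of 20 reads only through the 63 reads of WT replicate 2, with 6 and 15 reads in MD1 and 13 in WT replicate 1. Of the neuron markers Dcx is X-linked, with 4 and 17 reads in MD1 against 32 and 53 in WT. Its FPKM was low, at 0.0555 in MD1 and 0.192 in WT. Other neuron markers went both ways in the FPKM means. Stmn2 had 24.8 FPKM in MD1 and 9.62 FPKM in WT, and Tubb3 had 31.6 FPKM in MD1 and 16.4 FPKM in WT. Gap43 had 10.3 FPKM in MD1 and 37.6 FPKM in WT, and Map2 had 2.05 FPKM in MD1 and 6.44 FPKM in WT. Nefm differed little, with 1.46 FPKM in MD1 and 1.34 FPKM in WT. Whether other cells in the cultures had a part in the uneven Bex and Tceal5 values was not tested. In bulk RNA, fewer cells of a type and less RNA per cell cannot be told apart.

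The other members were steadier. Tceal8 had 3398 and 4493 scaled reads in MD1 against 4451 and 5640 in WT, with overlapping groups. Ngfrap1 had 608.8 and 809.5 in MD1 against 521.7 and 935.3 in WT, also overlapping. Tceal3 had 92.2 and 65.7 in MD1 against 211.3 and 153.3 in WT, and Tceal1 had 92.2 and 106.6 in MD1 against 170.9 and 178.2 in WT. For these 2 genes, as for Tceal5, the higher MD1 library was under the lower WT library. That makes 3 of 7 members, of which Tceal5 met the minimum of reads only through WT replicate 2. Of all 406 genes 28.6% had both MD1 libraries under both WT libraries on this scale.

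None of the 7 members averaging at least 20 reads was called by edgeR on these reads at an FDR of 0.05 over 406 genes, where 0.985% of genes rose and 1.23% fell. At an unadjusted p under 0.05 there were 2 of 7 members and 23.9% of all 406 genes, and DESeq2 called 0 members. The log2 changes, MD1 over WT after TMM scaling, were -1.19 ± 0.422 for Tceal3, -0.81 ± 0.302 for Tceal1 and -2.37 ± 0.955 for Tceal5 (SE, adjusted p = 0.196, 0.204 and 0.204, edgeR). They were -0.35 ± 0.196 for Tceal8 and -0.026 ± 0.299 for Ngfrap1 (SE, adjusted p = 0.321 and 0.974, edgeR). Bex1 and Bex2 had -0.75 ± 1.03 and -0.84 ± 1.24 (SE, adjusted p = 0.702 and 0.717, edgeR), errors wider than the changes. With the replicate number as a block, Tceal3 and Tceal5 were called lower, beside 17% of all 406 genes called lower and 11.3% called higher in that fit. Without WT replicate 2, the library through which Tceal5 met the minimum of reads, its log2 change was -0.87.

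**Figure D4:**
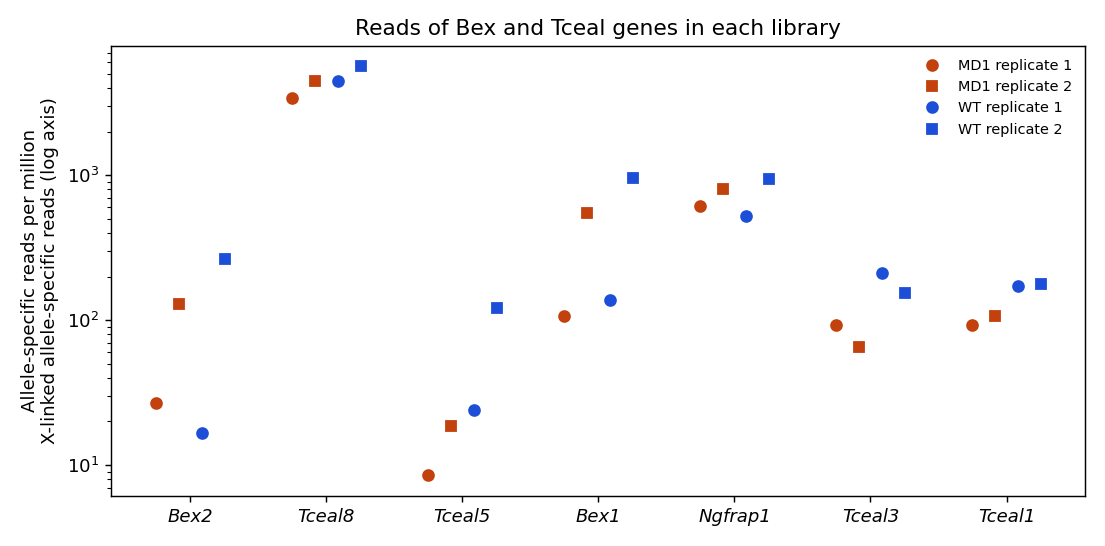
Reads per 1000000 X-linked allele-specific reads (log axis) for the 7 members averaging at least 20 reads, MD1 libraries left of WT libraries, circles for replicate 1 and squares for replicate 2. Bex1 and Bex2 separate by replicate in both genotypes, while Tceal3, Tceal1 and Tceal5 are lower in both MD1 libraries.

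The maternal alleles of the members, which are on the active X, were measured by the B6 reads alone. None of the 5 members tested was called by edgeR, where 0.512% of the 391 genes rose and 1.02% fell. DESeq2 also called 0 members. At an unadjusted p under 0.05 by edgeR there were 0 of the 5 members and 42 of the 391 genes. Tceal8 had 2309 and 3471 B6 reads in MD1 against 2413 and 2936 in WT, a log2 change of -0.071 ± 0.194 (SE, adjusted p = 0.936, edgeR). Ngfrap1 had 389 and 606 B6 reads in MD1 against 284 and 487 in WT, a log2 change of 0.19 ± 0.288 (SE, adjusted p = 0.816, edgeR). For both, the sign depended on which library or scaling was used, and their errors leave room for changes in either direction. Tceal3 had -0.86 ± 0.419 and Tceal1 -0.56 ± 0.305 (SE, adjusted p = 0.503 and 0.524, edgeR). Bex1 had -0.52 ± 1.05 (SE, adjusted p = 0.864, edgeR).

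For total RNA the authors deposited a single FPKM mean for MD1 and one for WT, so differences in it have no replicate check. FPKM is per length and allows a comparison between genes, apart from reads shared by near copies. Ngfrap1 was the highest member with 272.1 FPKM in MD1 and 263.2 FPKM in WT, followed by Tceal8 with 107.02 FPKM in MD1 and 113.4 FPKM in WT. The relative Wbp5 was higher than both, at 338.1 FPKM in MD1 and 347.6 FPKM in WT. These 3 genes, all with a paternal share of 3.9% to 9.2% in MD1, differed little in FPKM between the groups.

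Apart from Tceal7, the members with less FPKM than Ngfrap1 and Tceal8 had lower group means in MD1. Bex1 had 7.73 FPKM in MD1 against 13.46 FPKM in WT, Bex2 6.71 against 10.3 FPKM, and Tceal1 5.08 against 7.16 FPKM. Tceal3 had 1.82 FPKM in MD1 against 3.70 FPKM in WT, and Tceal5 had 0.598 FPKM in MD1 against 2.61 FPKM in WT, or 22.9% of the WT level. Bex4 and Tceal7 had 2.08 and 1.17 FPKM in MD1 against 2.68 and 1.06 FPKM in WT. Tceal6 was the lowest member with 0.140 FPKM in MD1 and 0.180 FPKM in WT. For Bex1 and Bex2 the group means hide the gap between replicates seen in the reads.

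On the scale of log2(FPKM + 1), MD1 over WT, 9 members had a mean of 1 FPKM or more, and Tceal5 passed this bound through its WT value. Of the 9, 7 were below 0 and the median was -0.43. Among 11399 genes that met the bound the median was 0.0058 with 49.2% below 0, and among 398 X-linked genes it was 0.22 with 32.4% below 0. Tceal5 alone, at -1.18, was at least 2-fold lower, as were 2.81% of all genes. No member was at least 2-fold higher, as were 1.39% of all genes.

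**Figure D5:**
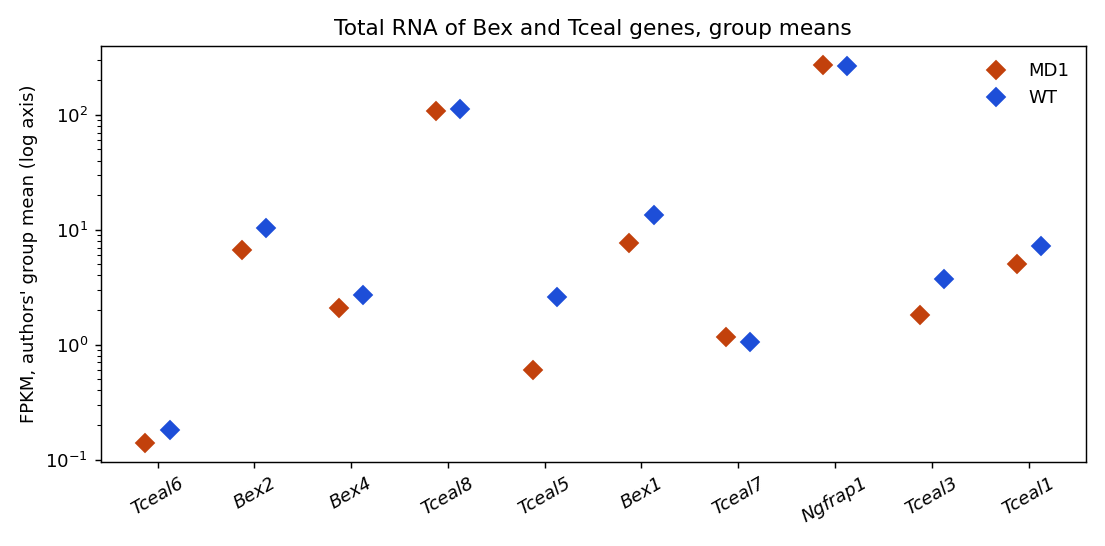
FPKM of the 10 members (log axis) as the authors' group means, MD1 left of WT, in order along X, with no value per library and hence no error bar. Ngfrap1 and Tceal8 stand above 100 FPKM in both groups, and Tceal5 has the widest gap, with 0.598 FPKM in MD1 and 2.61 FPKM in WT.

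Related genes gave the following values. Of the 10 relatives on X (Wbp5, Gprasp1, Gprasp2, Bhlhb9 and Armcx1 to Armcx6), 8 had enough allele-specific reads. Their median gene share was 0.657% in MD1 and 0% in WT. Their mean share was 7.18% ± 0.364 in MD1 and 0.0317% ± 0.0112 in WT (SD, n = 2 each). In MD1, 2 of the 8 reached a share of 10%, the highest at 33.5%. Of the relatives 9 met the FPKM bound, with a median log2 ratio of -0.17 and 7 below 0. The autosomal Bex6 was listed at 0 FPKM in both groups. Among 5 genes of the elongation factor S-II family 4 met the bound, 3 below 0 and 1 above, with Tcea1 at 30.004 FPKM in MD1 and 22.3 FPKM in WT, and a median of -0.11. The X-linked Tceanc had 25.0% ± 1.71 paternal share in MD1 against 0% in WT (SD, n = 2 each). Ngfr had 3.40 FPKM in MD1 and 3.94 FPKM in WT, and Sort1, the gene of its co-receptor, had 4.52 FPKM in MD1 and 11.1 FPKM in WT.

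The labels were checked on the targeted gene, the X and the cell type. Smchd1 had 1.94 FPKM in MD1 and 14.7 FPKM in WT, and Xist, which coats the inactive X, was paternal at 99.9% in both groups. All 11 fibroblast markers were at 1 FPKM or more in both groups, with sums of 6200 FPKM in MD1 and 6635 FPKM in WT. Of 13 neuron markers 5 reached 1 FPKM, with sums over all 13 of 71.7 FPKM in MD1 and 73.4 FPKM in WT, and Rbfox3 and Elavl3 were under 0.1 FPKM. The 8 skeletal muscle markers summed to 43.1 FPKM in MD1 and 154.7 FPKM in WT, the 5 endothelial markers to 4.93 and 7.80 FPKM, the 5 blood markers to 16.5 and 20.5 FPKM and the 4 epithelial markers to 24.8 and 19.95 FPKM. None of these markers was listed at 0. Their part in the members' differences was not tested.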

How the data were processed

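Polyadenylated RNA of 4 libraries was measured with a stranded kit, per the labels' protocols. The authors deposited counts of allele-specific reads for the X-linked genes of every library. The JF1 part of them was deposited by the authors as a fraction, given from 10 reads up. Fraction times reads was whole within 0.001 for 100% of values, which gave JF1 and B6 reads. FPKM was deposited as the authors' mean per group. Cufflinks 2.2.1, Cuffdiff and the build mm9 are named in the submitters' processing notes. Aligner, annotation and JF1 variant list were not given in the sources used here. A bias of alignment toward B6 would lower JF1 shares in both groups. The table's starts were raised by 1 to print 1-based mm9 coordinates.

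X-linked genes other than Xist with a share in every library and a mean of 20 or more reads were fitted in R 4.3.3 with edgeR 4.0.16 and its two-sided quasi-likelihood test, with Benjamini-Hochberg adjustment over all genes fitted and an FDR of 0.05. The share was tested as the interaction of allele and genotype beside terms for library and allele, with library sizes alike for both alleles. B6 reads and reads of both alleles were fitted by genotype with TMM factors. For reads of both alleles no share was required, which left 406 genes. SE is the log2 change over the root of F, an approximation. DESeq2 1.42.0 was an alternative. Scripts were tested on simulated data. With 2 libraries against 2, an exact two-sided permutation test cannot go below p = 0.333, so none is given. Intervals (Wilson, 95%) and limits from 0 reads (3 counts) cover counting error only. The planned limma test of FPKM could not be fitted with 1 mean per group, so FPKM ratios are described.

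Members and lists were chosen with earlier results of these data known. Named genes were the members, the other genes between the outermost members with their shares, the 3 nearest informative genes on each side, and the relative, elongation factor and neurotrophin lists. Some of these genes, and the counts over the neurotrophin list, are not reported here. Replicates differed far beyond sampling noise, with a chi-square per degree of freedom of 83.8 in MD1 and 95.8 in WT. Promoter windows are from RefSeq (GRCm38.p6). Where a gene had several, the one whose distance to the gene's end was nearest to the table's span was used. Pairs were aligned with Biopython 1.88.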

Additional observations from a re-analysis of the deposited data

How the results depend on the processing

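The count of members whose paternal share rose was 4 of 5 and ranged from 2 to 4 when 1 library was left out, with 2 without WT replicate 2. Over all 391 genes the rises ranged from 270 to 280. With the replicate number as a block they were 284 genes and 4 members, and Tceal1 was not called with DESeq2. On reads of both alleles no member was called under any setting except the replicate block, which called 2, and which turned Ngfrap1 to 0.012. The numbers are not stated to pair the libraries. Replicate differences correlated between genotypes across 406 genes at r = 0.348. Over all genes the block moved these calls to 46 higher and 69 lower, against 4 and 5 without it, and with DESeq2 they were 15 and 23. For B6 reads they were 17 and 26 with the block, 5 and 8 with DESeq2, and 2 and 4 otherwise. Leaving out 1 library moved the calls on both alleles to 0 to 19 higher and 0 to 31 lower, with none without MD1 replicate 2 and most without WT replicate 2, and those on B6 reads to 0 to 15 higher and 0 to 18 lower, likewise.

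Signs turned for changes that were not called. With 1 library left out, the log2 change in reads ranged from -2.20 to 1.14 for Bex1, from -2.22 to 2.13 for Bex2 and from -0.32 to 0.38 for Ngfrap1, and Ngfrap1 had 0.036 with no minimum. Tceal5 kept its sign, with -3.05 to -0.87, the smallest drop being without WT replicate 2. That in B6 reads ranged from -2.17 to 1.37 for Bex1, from -0.11 to 0.59 for Ngfrap1 and from -0.16 to 0.042 for Tceal8, which had 0.092 without TMM. The mean share difference of 5.86 points ranged from 3.22 to 8.49 with 1 library left out and was 4.42 with reads pooled. A pseudocount of 0.1 gave a median FPKM ratio of -0.49, and dropping the FPKM bound gave -0.34. The causes were not tested. Fits without 1 library assume that the lone library of a group varies like the other group. Depth limits Tceal5, Tceal6, Tceal7 and Bex2, and Bex4 has no allele-specific read.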
